A study of Mus musculus with 12 samples.

Results

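The mouse Toll-like receptors are membrane proteins that recognise microbial products and some of the body's own molecules released from stressed or dying cells. The 10 genes described here, Tlr1 to Tlr9 and Tlr13, were taken from the deposited count table by their symbols. They are 10 of the 45906 genes in that table, and all 10 were among the 20155 genes with enough counts to be tested. Poly-A RNA was sequenced from the spinal cords of 12 mice aged 7 months, kept on a C57BL/6 background, with 3 mice in each genotype. Plekhg5+/+ mice carried neither alteration. Plekhg5-/- mice lacked Plekhg5, a guanine nucleotide exchange factor with a role in autophagy at nerve terminals. Plekhg5+/+ SOD1-G93A mice carried a low copy transgene for mutant human SOD1, which causes amyotrophic lateral sclerosis, and Plekhg5-/- SOD1-G93A mice carried both alterations. The cord holds neurons, glia, vessels and immune cells together, so a change in its RNA cannot be assigned to one cell type. The study proposed that mutant SOD1 secreted from motoneurons acts on Tlr2 of microglia, and the question here is how the transcripts of this receptor and its relatives differed between the genotypes.

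Toll-like receptors hold leucine-rich repeats outside the membrane, which bind the ligand, and a TIR domain inside the cell, which recruits the adaptors Myd88 or Ticam1. The adaptors pass the signal through kinases to NF-kappaB and to interferon regulatory factors, which switch on cytokine and chemokine genes. Tlr1, Tlr2, Tlr4, Tlr5 and Tlr6 act mainly at the cell surface, whereas Tlr3, Tlr7, Tlr8, Tlr9 and Tlr13 sense nucleic acids in endosomes. In the central nervous system, microglia are the best known source of most of these receptors, and astrocytes also express Tlr3.

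The genes lie at several places in the genome (positions on GRCm38.p6 as deposited). Tlr2 was annotated on chromosome 3 from 83836272 to 83841824, on the minus strand. Its 2 partners are neighbours on the minus strand of chromosome 5, with Tlr1 from 64924680 to 64933600 and Tlr6 from 64952030 to 64970942, 18.4 kb apart. Tlr9 was on the plus strand of chromosome 9 from 106222598 to 106226876, and Tlr13 on the plus strand of the X chromosome from 106143275 to 106160493. Tlr8, from 167241123 to 167264329, and Tlr7, from 167303380 to 167330574, are 39.1 kb apart on the minus strand of the X chromosome. Tlr3 was on chromosome 8, Tlr5 on chromosome 1 and Tlr4 on chromosome 4, where its end was 85.2 Mb from the start of Plekhg5. In the GENCODE vM21 annotation of the same genome build, the whole coding sequence of Tlr1, Tlr2 and Tlr6 was in 1 exon, and the 1 largest exon held 98.6% of it in Tlr5, 98.8% in Tlr13 and 99.9% in Tlr7, Tlr8 and Tlr9. Tlr3 differed most from this, with 4 coding exons of which the largest held 68.3% of 2715 coding bases.

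The 4 receptors that passed the test in the SOD1-G93A comparison below were Tlr1, Tlr2, Tlr9 and Tlr13. Their promoters are shown because they passed, and no common control follows from that choice. Each window runs from 250 bases before to 50 bases after a transcription start site, 5′ to 3′ on the strand of the gene, from RefSeq on GRCm38.p6. Capitals mark matches on either strand to GAGGAA, a form of the sites of the myeloid factor PU.1, or to the binding motif of NF-kappaB. Other and shorter forms of PU.1 sites were not searched.
Tlr2 promoter, chr3:83841559-83841858, minus strand: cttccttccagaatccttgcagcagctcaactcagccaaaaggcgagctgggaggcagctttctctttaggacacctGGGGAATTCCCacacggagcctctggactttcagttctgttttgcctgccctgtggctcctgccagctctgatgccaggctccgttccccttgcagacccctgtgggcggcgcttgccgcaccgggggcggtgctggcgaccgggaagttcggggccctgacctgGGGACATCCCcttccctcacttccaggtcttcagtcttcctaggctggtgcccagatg
Tlr1 promoter, chr5:64933509-64933808, minus strand: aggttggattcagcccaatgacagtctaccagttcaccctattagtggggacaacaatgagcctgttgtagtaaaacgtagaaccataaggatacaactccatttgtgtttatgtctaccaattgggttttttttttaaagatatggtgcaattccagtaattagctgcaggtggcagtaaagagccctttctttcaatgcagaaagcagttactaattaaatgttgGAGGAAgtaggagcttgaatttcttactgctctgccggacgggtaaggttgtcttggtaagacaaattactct
Tlr13 promoter, chrX:106143025-106143324, plus strand: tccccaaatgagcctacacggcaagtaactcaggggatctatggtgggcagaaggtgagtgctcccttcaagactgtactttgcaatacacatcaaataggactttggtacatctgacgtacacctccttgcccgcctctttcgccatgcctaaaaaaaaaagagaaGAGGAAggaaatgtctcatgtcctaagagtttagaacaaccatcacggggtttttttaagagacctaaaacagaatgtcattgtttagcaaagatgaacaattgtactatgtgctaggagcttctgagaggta
Tlr9 promoter, chr9:106222348-106222647, plus strand: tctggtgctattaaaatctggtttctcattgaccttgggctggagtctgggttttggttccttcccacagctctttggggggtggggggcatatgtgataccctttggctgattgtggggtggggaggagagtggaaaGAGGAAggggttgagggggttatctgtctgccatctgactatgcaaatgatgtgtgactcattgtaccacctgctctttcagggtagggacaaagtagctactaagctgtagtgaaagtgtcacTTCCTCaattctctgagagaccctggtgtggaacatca
The Tlr2 window held the NF-kappaB motif at 2 places, 173 and 8 bases before the start site, the first of them read in 2 overlapping ways. It did not hold GAGGAA, which leaves other forms of PU.1 sites unexamined. The windows of Tlr1 and Tlr13 held GAGGAA once and that of Tlr9 held it in 2 places. The NF-kappaB motif was in 8.46% and GAGGAA in 28.3% of all 32851 windows of 300 bases. Among 10 windows of the 8 receptors with an entry, 2 held the NF-kappaB motif (Tlr2 and Tlr3) and 4 held GAGGAA (Tlr1, Tlr8, Tlr9 and Tlr13). The motif of interferon-stimulated genes, GAAANNGAAA, which was in 3.44% of all windows, was present in 1 of the 10, that of a second Tlr6 start site. Tlr1 has a second start site in the table as well, and Tlr4 and Tlr7 were not in it. The deposited model of Tlr2 begins 216 bases upstream of the start site shown, that of Tlr1 42 bases upstream of it, and those of Tlr9 and Tlr13 at it. These matches are a description of letters and not of binding.

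The libraries held 30415643 to 38743628 counts, with a median of 32714350. Human SOD1 reads were between 4421 and 5638 CPM (counts scaled to the library size after TMM normalization) in the 6 transgenic libraries and between 0.153 and 5.47 CPM in the 6 others. Plekhg5 was between 3.28 and 4.72 CPM in the 6 Plekhg5-/- libraries and between 19.4 and 25 CPM in the 6 others, so the labels held for both. Among the libraries, 3 of 3 Plekhg5+/+, 2 of 3 Plekhg5-/-, 2 of 3 Plekhg5+/+ SOD1-G93A and 1 of 3 Plekhg5-/- SOD1-G93A held Y-linked transcripts, so sexes were mixed unevenly. In the receptor values, the Plekhg5+/+ SOD1-G93A replicate 1 stood apart: 9 of the 10 receptors had their highest value of all 12 libraries there. Fold changes of the receptors that use this group are therefore also given without it. The share of all genes highest in that library is not given. Over all genes, limma voom gave it a quality weight of 0.795. Weights were lower, for more deviation, in Plekhg5-/- replicate 1 (0.324), Plekhg5+/+ replicate 1 (0.396) and Plekhg5+/+ SOD1-G93A replicate 3 (0.647).

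In Plekhg5+/+ spinal cord, levels per kilobase of exon (RPKM) spanned a wide range. Tlr3, a receptor for double-stranded RNA, was the highest at 6.17 ± 0.319 RPKM (SD, n = 3) and lay at the 58.3rd percentile of the genes tested. It was followed by Tlr2 at 1.40 ± 0.0504 RPKM, Tlr7 at 1.01 ± 0.365 RPKM and Tlr13 at 0.977 ± 0.135 RPKM. Ranges over the 3 libraries overlapped between Tlr2 and Tlr7 and between Tlr7 and Tlr13, whereas Tlr2 was above Tlr13 in every library. Tlr4, the receptor for bacterial lipopolysaccharide, followed at 0.506 ± 0.0623 RPKM and overlapped in range with Tlr9 at 0.348 ± 0.0993 RPKM. Tlr5, which binds flagellin, was at 0.312 ± 0.106 RPKM and Tlr1 at 0.255 ± 0.0237 RPKM. The lowest were Tlr6 at 0.202 ± 0.0270 RPKM and Tlr8 at 0.116 ± 0.0162 RPKM, and neither of them overlapped with its neighbours in this order. Tlr8 rested on 18 to 25 counts a library in this genotype, so it was measured with little precision.

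SOD1-G93A in mice with intact Plekhg5 was accompanied by higher levels of 4 of the 10 receptors, Tlr1, Tlr2, Tlr9 and Tlr13, with none lower. Of all genes tested, 2.47% passed the same test in either direction (edgeR quasi-likelihood test, Benjamini-Hochberg adjusted p under 0.05). The median log2 fold change was 0.93 over the 10 receptors and -0.00 over all genes. It includes Plekhg5+/+ SOD1-G93A replicate 1, and the values of single receptors without that library are given below. In bulk tissue, more cells of a type and more RNA per cell cannot be told apart. In 6 receptors, namely these 4 with Tlr6 and Tlr7, the 3 SOD1-G93A libraries were all above the 3 Plekhg5+/+ libraries, against 11.6% of all genes.

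**Figure D1:**
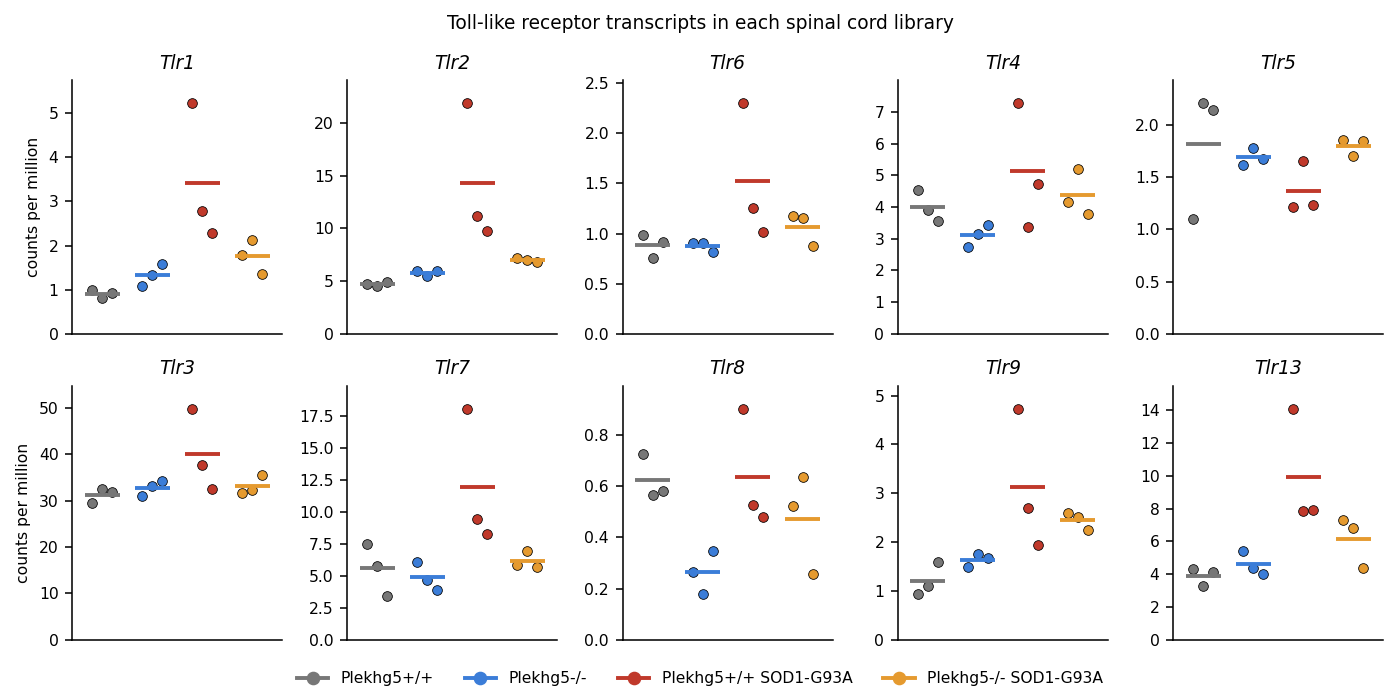
CPM of each Toll-like receptor (y axis, linear from 0) in the 12 libraries, by genotype; points are mice, in the order of their replicate numbers, and bars are means of 3. Plekhg5+/+ SOD1-G93A replicate 1 is the highest point for 9 of 10 receptors, Tlr2 at 21.8 CPM among them.

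Among the surface receptors, Tlr2 forms pairs with Tlr1 or Tlr6 that bind bacterial lipopeptides. Tlr2 was at 4.73, 4.53 and 4.87 CPM in the Plekhg5+/+ libraries and at 21.8, 11.2 and 9.78 CPM in the Plekhg5+/+ SOD1-G93A libraries, so the groups were well apart but the first transgenic library was far above the others. Its log2 fold change was 1.6 (SE 0.24, adjusted p = 0.0125, edgeR), a 3.03-fold increase. Without that library it was 1.15 (SE 0.10, adjusted p = 0.000348). Tlr1, the partner for triacylated lipopeptides, was at 0.986, 0.818 and 0.919 CPM in Plekhg5+/+ and at 5.22, 2.77 and 2.28 CPM in Plekhg5+/+ SOD1-G93A mice. It rose by 1.91 on the log2 scale (SE 0.30, adjusted p = 0.0125), the largest change among the receptors, and by 1.47 (adjusted p = 0.00777) without the first transgenic library.

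Tlr6, the partner for diacylated lipopeptides, had 0.986, 0.755 and 0.919 CPM against 2.30, 1.25 and 1.02 CPM. The libraries did not overlap, but the log2 difference of 0.78 (SE 0.27, adjusted p = 0.153) did not pass the test, and it was 0.35 without the first transgenic library. Tlr1 and Tlr6 are close relatives whose reads are in part the same: of 3307 stretches of 75 bases, 1 read length, in Tlr1 transcripts, 340 were also in Tlr6. Reads with several matches were counted in fractions, and 7 libraries for Tlr1 and 8 for Tlr6 held counts that were not whole, so small differences between these 2 genes are uncertain. Tlr4 was at 4.52, 3.90 and 3.55 CPM in Plekhg5+/+ and at 7.27, 3.37 and 4.74 CPM in Plekhg5+/+ SOD1-G93A mice, which overlapped (log2 difference 0.36, adjusted p = 0.452). Tlr5 was the only receptor with a negative value, with 1.1, 2.20 and 2.14 CPM against 1.21, 1.65 and 1.23 CPM. These groups overlapped too (log2 difference -0.41, adjusted p = 0.392).

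Among the endosomal receptors, Tlr13, a sensor of bacterial ribosomal RNA that humans lack, was at 4.32, 3.30 and 4.13 CPM in Plekhg5+/+ mice. In Plekhg5+/+ SOD1-G93A mice it was at 14.1, 7.89 and 7.92 CPM, all above every control. It rose by 1.34 on the log2 scale (SE 0.25, adjusted p = 0.0197), and by 1.01 (adjusted p = 0.0394) without the first transgenic library. Tlr9, which binds DNA with unmethylated CpG, was at 0.928, 1.1 and 1.59 CPM against 4.72, 2.71 and 1.95 CPM. Its increase of 1.37 (SE 0.29, adjusted p = 0.0302) was 0.94 and did not pass the test without that library (adjusted p = 0.0869). Of the 4 receptors, Tlr9 alone lost its call when this mouse was left out.

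Tlr7, a sensor of single-stranded RNA, was at 7.48, 5.79 and 3.46 CPM in Plekhg5+/+ and at 18, 9.44 and 8.28 CPM in Plekhg5+/+ SOD1-G93A mice. The libraries did not overlap, but the control values were widely spread, and the log2 difference of 1.09 (SE 0.31) had an adjusted p of 0.0890. DESeq2 gave Tlr7 1.08 with an adjusted p of 0.0111, and 0.45 with an adjusted p of 0.00549 when fold changes were shrunk by a prior. Tlr3 was at 29.5, 32.6 and 31.9 CPM against 49.7, 37.7 and 32.5 CPM, which overlapped (0.35, SE 0.12, adjusted p = 0.145). Tlr8, a relative of Tlr7 that also senses RNA, was at 0.725, 0.567 and 0.582 CPM against 0.901, 0.528 and 0.480 CPM (0.02, adjusted p = 0.980). Tlr7, Tlr8 and Tlr13 are X-linked and the groups differed in their share of males. With an indicator of Y-linked transcripts in the fit, the log2 difference was 1.14 for Tlr7, 0.15 for Tlr8 and 1.44 for Tlr13 (adjusted p = 0.0136 for Tlr13). Without the first transgenic library, the log2 difference was 0.66 for Tlr7 (adjusted p = 0.315), 0.16 for Tlr3, 0.02 for Tlr4 and -0.33 for Tlr5, and that of Tlr8 changed sign to -0.31.

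These calls depended on the libraries and the tool used. With only the 6 libraries of both genotypes in the fit, 0 of the 10 receptors and 3 of all genes passed, while DESeq2 with and without the prior gave adjusted p under 0.05 to all 4 and to Tlr7. Without Plekhg5+/+ replicate 1 or replicate 2, 0 receptors passed, and of all genes only 4 and 2 did, against 498 in the full fit. The log2 fold changes of Tlr2 were then 1.6 (adjusted p = 0.0661, edgeR) and 1.57 (adjusted p = 0.0916).

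Microglial genes moved with these receptors. All 12 of 12 general microglia markers passed the test upwards, and their summed level was 450.3 to 527.7 CPM in Plekhg5+/+, 500.8 to 678.0 CPM in Plekhg5-/-, 921.2 to 1871 CPM in Plekhg5+/+ SOD1-G93A and 661.4 to 746.0 CPM in Plekhg5-/- SOD1-G93A libraries. Of 11 markers of homeostatic microglia, 7 passed upwards, with sums of 371.4 to 410.9 CPM in Plekhg5+/+ and 622.8 to 994.0 CPM in Plekhg5+/+ SOD1-G93A mice. Sums of 5 astrocyte markers, a second cell type with Tlr3, were 4894 to 4993 CPM and 6076 to 9505 CPM in the same genotypes, with 1 of 5 passing. Of 5 B cell markers, 1 passed, with sums of 1.22 to 2.77 CPM and 3.04 to 6.49 CPM. Neutrophil markers, 8 in number, had sums of 13.2 to 63.0 CPM and 40.2 to 136.9 CPM with 0 passing. Of 7 markers of perivascular and border macrophages, 1 passed upwards, but only 2 had positive values. Their median log2 fold change was -0.25, and their sums of 12.5 to 21.5 CPM and 10.6 to 21.2 CPM overlapped. None of these 6 lists had a marker at 0 in all libraries of either genotype. The part of these cells in the receptor results was not tested, and the ratios below only compare levels of transcripts.

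**Figure D2:**
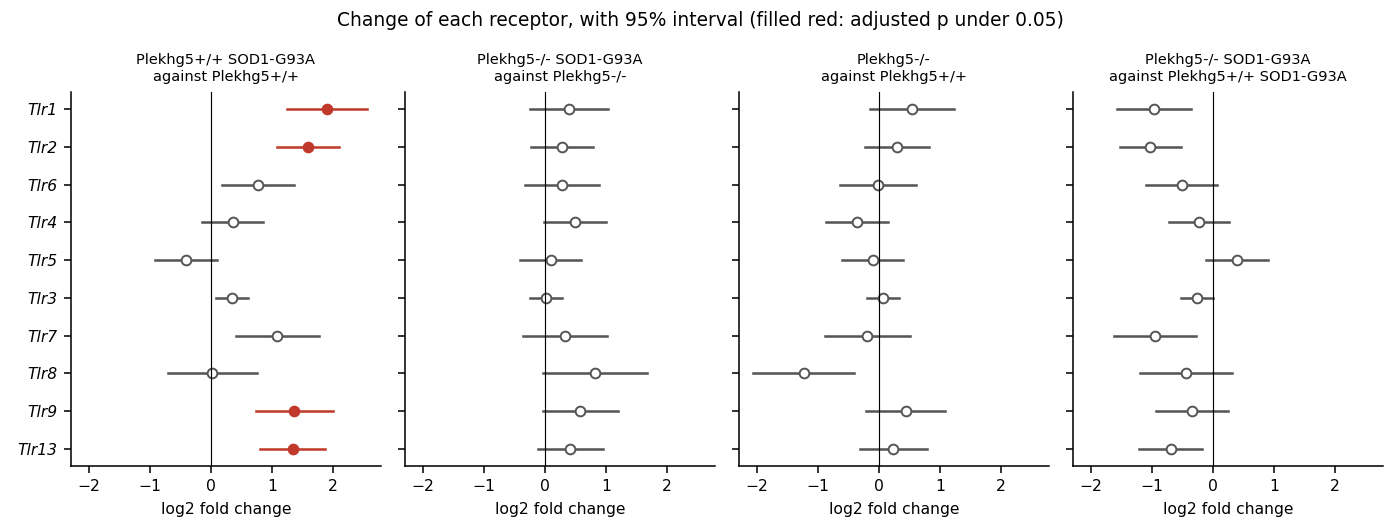
Log2 fold change of each receptor (x axis) in 4 comparisons with its 95% interval, from the fit of all 12 libraries; filled red points have an adjusted p under 0.05. Tlr1, Tlr2, Tlr9 and Tlr13 are filled in the first comparison, and in the others every point is open.

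In mice lacking Plekhg5, the transgene left no receptor past the test. Between Plekhg5-/- SOD1-G93A and Plekhg5-/- mice, 0 of the 10 receptors passed the test, as against 0.00496% of all genes, and 0 had an unadjusted p under 0.05, where 5.38% of all genes did. All 10 log2 differences were positive, with a median of 0.36. Markers of other immune cells had positive values as well, with 0 passing: the median was 1.25 over 5 monocyte markers, 1.12 over 8 neutrophil markers and 2.72 over the 2 tested T cell markers, against 0.28 over the general microglia markers. Summed levels ranged from 8.28 to 12.9 CPM in Plekhg5-/- and from 8.68 to 41.7 CPM in Plekhg5-/- SOD1-G93A libraries for monocytes, from 27.4 to 73.2 CPM and from 20.9 to 234.6 CPM for neutrophils, and from 0.351 to 0.442 CPM and from 0.621 to 3.58 CPM for T cells, and their part in the receptor values was not tested. Tlr2 was at 5.94, 5.45 and 5.93 CPM in Plekhg5-/- and at 7.19, 7.01 and 6.78 CPM in Plekhg5-/- SOD1-G93A mice. These groups did not overlap, but the log2 difference was only 0.28 (SE 0.23, 95% interval -0.23 to 0.78). Tlr4 and Tlr9 did not overlap either (0.49 and 0.58), and 7.25% of all genes had the transgenic libraries above the others in this way. Tlr8 had the largest difference at 0.82 (SE 0.40), with groups of 0.263, 0.181 and 0.347 CPM and 0.524, 0.638 and 0.259 CPM that overlapped. Averaged over both Plekhg5 backgrounds, the transgene effect passed for 4 receptors, against 1.22% of all genes. These were again Tlr1 (1.15, adjusted p = 0.0287), Tlr9 (0.98, adjusted p = 0.0401), Tlr2 (0.94, adjusted p = 0.0282) and Tlr13 (0.88, adjusted p = 0.0355). Without single libraries of Plekhg5+/+, Plekhg5-/- or Plekhg5-/- SOD1-G93A mice the number fell to as few as 0. The calls over all genes fell too, from 245 to as few as 10 without Plekhg5+/+ replicate 2.

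Among mice with the transgene, 9 of 10 receptors had lower mean fitted levels without Plekhg5, but 0 passed the edgeR test, as against 0.0347% of all genes, and 5 had an unadjusted p under 0.05, where 8.64% of all genes did. Without Plekhg5+/+ SOD1-G93A replicate 1, only Tlr1 and Tlr2 of the 10 had one. The median log2 difference was -0.48, against -0.01 over all genes. This median and the count of 9 include that replicate, without which Tlr4 (0.11) and Tlr9 (0.08) were not lower. Tlr2 was at 21.8, 11.2 and 9.78 CPM in Plekhg5+/+ SOD1-G93A and at 7.19, 7.01 and 6.78 CPM in Plekhg5-/- SOD1-G93A mice, a tight group below the lowest of the others. Its log2 difference was -1.03 (SE 0.23, adjusted p = 0.371, edgeR). DESeq2 gave -1.02 with an adjusted p of 0.0111, and with the prior -0.56 with an adjusted p of 0.00281, so the call for Tlr2 depended on the tool. DESeq2 with the prior is the kind of test that the study itself used, and by it Tlr2 was lower. Without Plekhg5+/+ SOD1-G93A replicate 1, the edgeR value was -0.58 (adjusted p = 0.266).

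For Tlr1 the same libraries held 5.22, 2.77 and 2.28 CPM and 1.79, 2.13 and 1.35 CPM, for a log2 difference of -0.97 (adjusted p = 0.416). For Tlr13 they held 14.1, 7.89 and 7.92 CPM and 7.31, 6.83 and 4.40 CPM (-0.69, adjusted p = 0.515). Tlr7 was at 5.86, 6.95 and 5.70 CPM in Plekhg5-/- SOD1-G93A mice (-0.95, adjusted p = 0.468). These 4 receptors had no overlap, with all Plekhg5-/- SOD1-G93A libraries lower, where 10% of all genes did. Tlr9, at 2.59, 2.52 and 2.25 CPM, lay within the range of the Plekhg5+/+ SOD1-G93A mice (-0.35). Tlr3 at 31.6, 32.2 and 35.5 CPM (-0.27), Tlr4 at 4.16, 5.19 and 3.78 CPM (-0.23), Tlr6 at 1.17, 1.15 and 0.880 CPM (-0.52) and Tlr8 (-0.44) also overlapped. Tlr5 was the exception in direction, at 1.85, 1.70 and 1.84 CPM and all above the Plekhg5+/+ SOD1-G93A libraries (0.40, adjusted p = 0.617), as were 9.48% of all genes. Without Plekhg5+/+ SOD1-G93A replicate 1 the differences were -0.53 for Tlr1, -0.52 for Tlr7, -0.36 for Tlr13, -0.11 for Tlr8, -0.09 for Tlr6 and -0.08 for Tlr3, and those of Tlr4 (0.11) and Tlr9 (0.08) changed sign. This comparison and that of SOD1-G93A with Plekhg5+/+ share the Plekhg5+/+ SOD1-G93A libraries, so opposite signs in them are not independent. The 12 general microglia markers had a median log2 difference of -0.89 here, with 0 of 12 above 0 and 0 passing the test. The part of microglia in the receptor values was not tested, and the ratios below only compare transcript levels.

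Without the transgene, loss of Plekhg5 left 0 receptors past the test, as against 0.0298% of all genes, and 1, Tlr8, had an unadjusted p under 0.05, where 5.32% of all genes did. It was measured with 0.725, 0.567 and 0.582 CPM in Plekhg5+/+ and 0.263, 0.181 and 0.347 CPM in Plekhg5-/- mice, the latter resting on 6 to 11 counts. The groups did not overlap, and the log2 difference was -1.24 (SE 0.38, adjusted p = 0.789, edgeR). Tlr4 was also lower in all Plekhg5-/- libraries, at 2.75, 3.13 and 3.44 CPM (-0.36), and 3.99% of all genes were lower in this way. Tlr2 (0.29) and Tlr1, at 1.08, 1.33 and 1.58 CPM (0.54), were above the controls in all libraries, as were 4.72% of all genes. Tlr9 had 1.49, 1.75 and 1.67 CPM and Tlr13 5.44, 4.37 and 4.04 CPM in Plekhg5-/- mice, both overlapping with the controls.

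The difference between the transgene effects in both Plekhg5 backgrounds was tested directly as an interaction, where 0 receptors and 0% of all genes passed. Tlr2 had an interaction of -1.32 on the log2 scale (SE 0.33, adjusted p = 0.338, edgeR), Tlr1 of -1.51 (SE 0.42, adjusted p = 0.375) and Tlr13 of -0.93 (SE 0.35, adjusted p = 0.465). These are the 3 receptors with an unadjusted p under 0.05, as 9.05% of all genes had. DESeq2 called the interaction of Tlr2 alone among the receptors (-1.31, adjusted p = 0.0349, or -0.69 and 0.0190 with the prior). Without Plekhg5+/+ SOD1-G93A replicate 1, edgeR gave -0.87 for Tlr2 (adjusted p = 0.279), -1.07 for Tlr1 (adjusted p = 0.515) and -0.59 for Tlr13 (adjusted p = 0.647). Tlr13 then no longer had an unadjusted p under 0.05, and Tlr8 did (1.13, adjusted p = 0.643). The interval of the edgeR interaction of Tlr2 ran from -2.04 to -0.60.

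The receptors were also set against the microglial markers. For each library, the mean log2 CPM of the 12 general microglia markers was subtracted from the log2 CPM of the receptor (prior count 2). That mean was 4.42 to 4.66 in Plekhg5+/+, 4.59 to 5.0 in Plekhg5-/-, 5.57 to 6.58 in Plekhg5+/+ SOD1-G93A and 5.04 to 5.28 in Plekhg5-/- SOD1-G93A libraries. With 6 libraries with the transgene against 6 without it, Tlr2 changed by 0.03 relative to the markers (p = 0.745, two-sided exact permutation test), after 0.88 without the subtraction, which takes the same amount from every receptor. Tlr13 changed by -0.02 (p = 0.840) and Tlr9 by 0.06 (p = 0.727), while Tlr1 was 0.21 higher (p = 0.212, exact permutation test) and Tlr7 0.15 lower (-0.15, p = 0.457).

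By contrast, Tlr3 was lower relative to the markers by -0.68 (p = 0.00433, exact permutation test), Tlr5 by -0.99 (p = 0.0152) and Tlr6 by -0.39 (p = 0.0108). Tlr4 (-0.47, p = 0.0823) and Tlr8 (-0.52, p = 0.178) did not pass the exact permutation test. These values pool both Plekhg5 backgrounds, which differed. With intact Plekhg5 and without it, the change was -1.04 and -0.33 for Tlr3, -1.72 and -0.26 for Tlr5, and -0.70 and -0.09 for Tlr6. It was -1.07 and 0.14 for Tlr4, and -1.38 and 0.33 for Tlr8. Before the subtraction, the difference of 6 against 6 libraries was 0.17 for Tlr3, -0.13 for Tlr5 and 0.46 for Tlr6. The markers themselves rose in these libraries, so a receptor that did not rise comes out lower by this measure. Such a p value does not show that the receptor itself fell. These are 10 tests of single values, and a set of 6 against 6 allows no p under 0.00216. Comparing 3 with 3 libraries, where the smallest p is 0.1, Tlr2 differed by 0.13 (p = 0.3, exact permutation test) between Plekhg5+/+ SOD1-G93A and Plekhg5+/+ mice and by -0.15 (p = 0.3) with loss of Plekhg5 among transgenic mice. With that loss, Tlr5 (1.17), Tlr4 (0.61), Tlr3 (0.52), Tlr9 (0.52) and Tlr6 (0.36) were relatively higher (each p = 0.1, exact permutation test). Tlr8 (0.36), Tlr13 (0.11), Tlr1 (-0.10) and Tlr7 (-0.09) had p from 0.4 to 0.8 in the same test. The markers were lower with that loss, so a receptor that fell less comes out higher. The choice of markers mattered: relative to the 11 homeostatic markers, Tlr2 was 0.38 higher (p = 0.0260, exact permutation test), Tlr1 0.57 higher (p = 0.0368) and Tlr13 0.34 higher (p = 0.0346) in the 6 transgenic libraries. Tlr3 was still lower (-0.33, p = 0.0260, exact permutation test), while Tlr5 (-0.63, p = 0.0628) and Tlr6 (-0.04, p = 0.758) did not pass. With intact Plekhg5 and without it, the change relative to these markers was 0.67 and 0.10 for Tlr2 and 0.93 and 0.20 for Tlr1. It was 0.46 and 0.22 for Tlr13, and -0.50 and -0.17 for Tlr3.

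**Figure D3:**
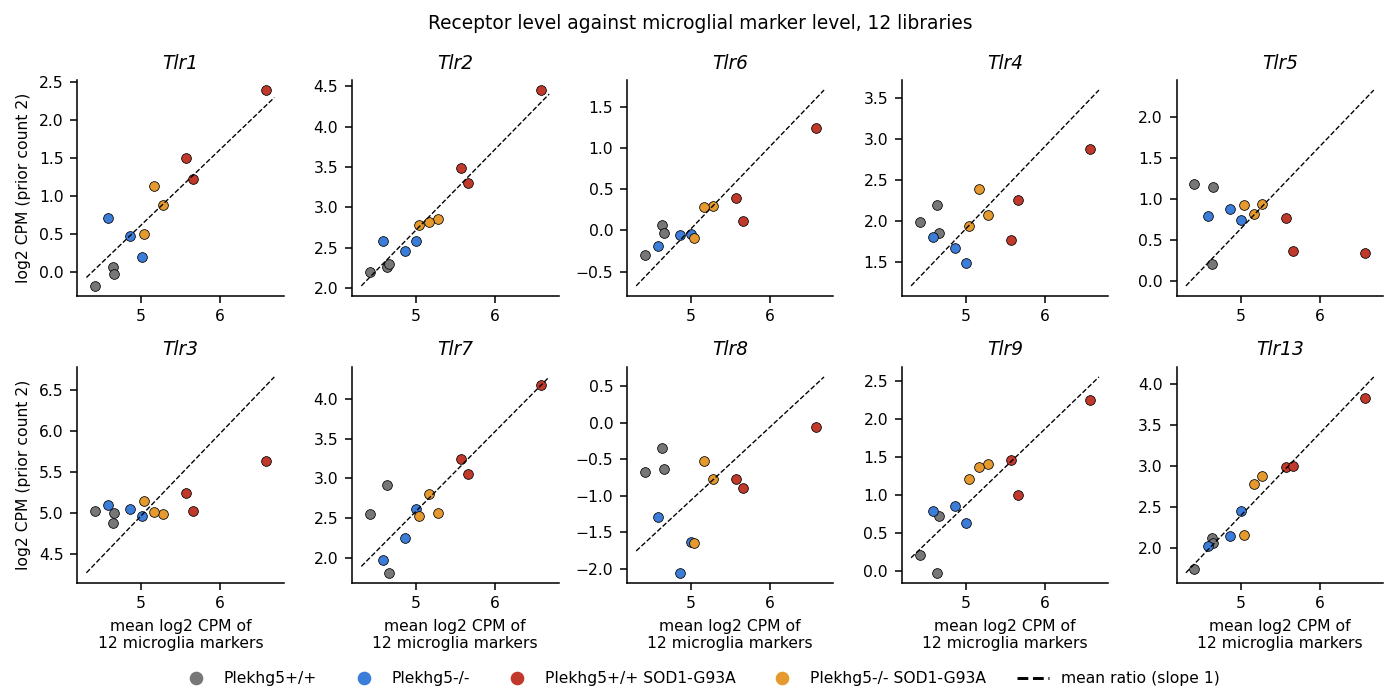
Log2 CPM of each receptor (y axis) against the mean log2 CPM of 12 general microglia markers (x axis) in the 12 libraries, coloured by genotype; the dashed line has a slope of 1 and passes through the mean ratio. Tlr2 and Tlr13 lie near the line, while Tlr3 and Tlr5 do not rise along it.

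The genes that work with Toll-like receptors were read from 8 lists with 98 genes, of which 89 were tested. In Plekhg5+/+ SOD1-G93A against Plekhg5+/+ mice, 17 of these were higher and 0 lower, and 14 of the 17 were also higher without the first transgenic library, where 2.47% and 1.09% of all genes passed in either direction. In the comparisons with loss of Plekhg5, with the transgene in Plekhg5-/- mice and in the interaction, 0 of the 89 passed. Of all genes, only 0% to 0.0347% passed in these comparisons, so 0 of 89 says little about the lists. Averaged over both backgrounds, 14 were higher and 0 lower, where 1.22% of all genes passed in either direction.

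Of 6 surface co-receptors, 2 rose. These were Cd180 (log2 fold change 2.58, adjusted p = 0.0260, edgeR) and its partner Ly86 (1.51, adjusted p = 0.0125), a pair that restrains Tlr4. Of the Tlr4 helpers, Cd14, which hands over lipopolysaccharide and also serves Tlr2, was at 0.76 (adjusted p = 0.126) and Ly96 at 0.30 (adjusted p = 0.658). Of 7 genes for chaperones and endosomal transport, Unc93b1, which carries the nucleic acid sensors to endosomes, rose by 1.07 (adjusted p = 0.0125) and Slc15a3, an endosomal peptide and histidine transporter, by 2.47 (adjusted p = 0.0125). Among 6 adaptors and scaffolds, Ticam2, the bridge between Tlr4 and Ticam1, rose by 1.57 (adjusted p = 0.0125) and the scaffold Pik3ap1 by 1.34 (adjusted p = 0.0260), whereas Myd88, the adaptor of most receptors, was at 0.21 (adjusted p = 0.429).

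Of 19 kinases and ubiquitin ligases, Btk was the 1 that rose, by 1.05 (adjusted p = 0.0273, edgeR). The kinase Irak4 was at 0.43 (adjusted p = 0.193) and Traf6, a ubiquitin ligase, at -0.17 (adjusted p = 0.231). Irf8 (1.64, adjusted p = 0.0165) and Irf5 (1.13, adjusted p = 0.0127) rose among 10 transcription factors, whereas Rela, a subunit of NF-kappaB, was at 0.24 (adjusted p = 0.115). Among 15 negative regulators, Lilrb4a (2.4, adjusted p = 0.0385) and Tnfaip8l2 (1.08, adjusted p = 0.0309) rose. Of 12 genes for proteins described as ligands from the body itself, Lgals3, which encodes galectin-3, rose by 2.59 (adjusted p = 0.0125). Among 14 tested target genes, 5 chemokines rose, of which Ccl3 had 3.86 (adjusted p = 0.00750), Ccl4 3.30 (adjusted p = 0.0103), Ccl2 2.50 (adjusted p = 0.0194) and Ccl5 2.34 (adjusted p = 0.0146). The fifth was Cxcl10 with 3.53 (adjusted p = 0.0266), while the cytokine Tnf was at 2.39 (adjusted p = 0.106). In these lists the medians ranged from -0.02 for the chaperones to 1.39 for the target genes, against 0.93 for the 10 receptors. The remaining mouse receptors had few counts. Tlr12 rose by 1.49 (adjusted p = 0.0473) from 7 to 13 counts in Plekhg5+/+ to 21 to 34 counts in Plekhg5+/+ SOD1-G93A libraries, and Tlr11 was not tested, with 0 to 3 counts in each library.

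**Figure D4:**
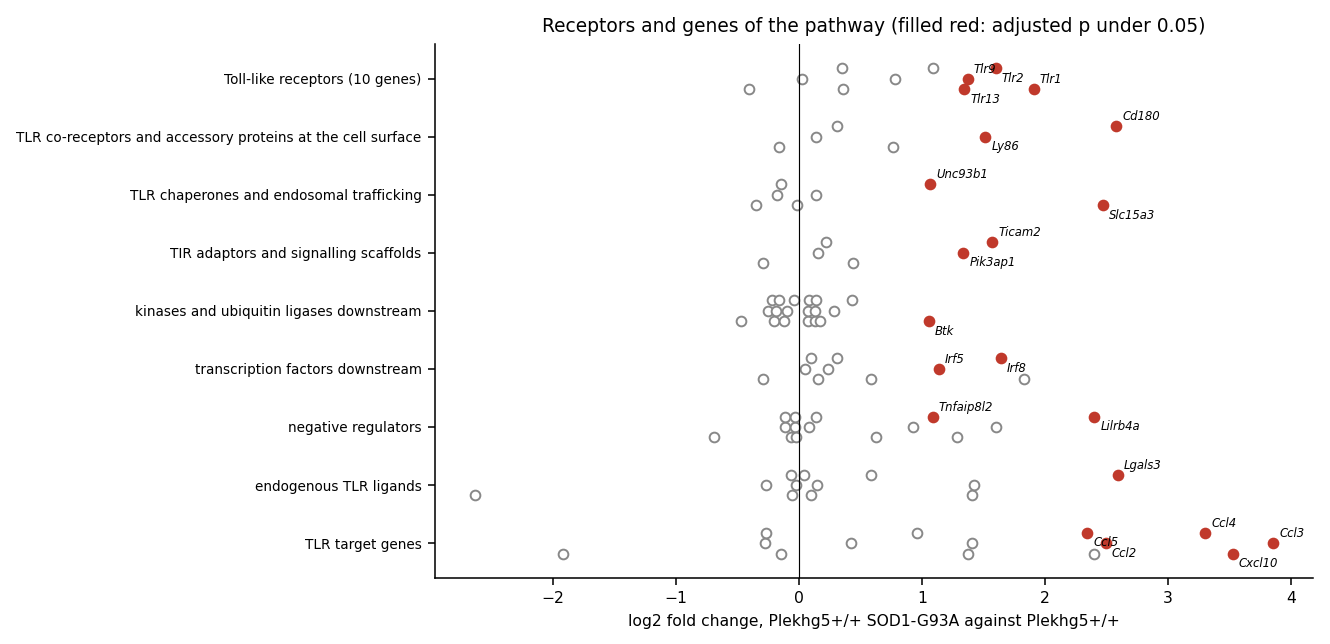
Log2 fold change between Plekhg5+/+ SOD1-G93A and Plekhg5+/+ mice (x axis) for the 10 receptors and 89 tested genes in 8 lists of the pathway (rows); each point is a gene, and filled red points, which are named, have an adjusted p under 0.05. The 17 filled genes outside the receptors all lie to the right of 0.

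Genes with the most similar profiles were found by Pearson's r of log2 CPM over the 12 libraries, which share genotype and depth, and are given as a description. For Tlr2 these were Hvcn1 (0.992), a proton channel of phagocytes, Lat2 (0.988), a signalling adaptor of immune cells, and Man2b1 (0.987), a lysosomal mannosidase. Without the first Plekhg5+/+ SOD1-G93A library, r was 0.981 for Hvcn1, 0.971 for Lat2 and 0.973 for Man2b1. After subtraction of the genotype means, the genes closest to Tlr2 were Aqp4 (0.981), S1pr3 (0.979), Hbegf (0.978), Hvcn1 (0.978) and Spp1 (0.971). Aqp4 is the water channel of astrocytes. Tlr2 had a coefficient of variation of 46.3% in Plekhg5+/+ SOD1-G93A mice and of 2.87% to 4.82% in the other genotypes, so these values rest mainly on that 1 genotype with its replicate 1.

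Tlr13 was closest to Was (0.985), Lrmp (0.975) and Tyrobp (0.974), the last a signalling adaptor of microglia, and Tlr1 to Cttnbp2nl (0.969), Cnr2 (0.968) and Myo1f (0.968). Tlr9 was closest to Pcdhgb4 (0.975), Micall2 (0.967) and Cd180 (0.966), Tlr6 to Fcgr1 (0.973), Slfn9 (0.973) and Gusb (0.963), and Tlr7 to Ccl6 (0.964), Cd9-ps (0.959) and Tmem273 (0.957). The closest profiles to Tlr3 were Slc16a10 (0.958), Mcur1 (0.947) and Bmp2k (0.946), but without the first Plekhg5+/+ SOD1-G93A library r was 0.792, 0.831 and 0.805. Tlr4 was closest to Ptbp1 (0.916), Zfp217 (0.913) and Cyp1b1 (0.911). For Tlr5 they were Pcdhac2 (0.933), Mapk8ip2 (0.918) and Caln1 (0.917), all better known from neurons. Tlr8, with few counts, was closest to Heatr5a (0.905), Il1b (0.878) and LOC105244102 (0.859). Among the receptors, Tlr1 and Tlr2 had an r of 0.961, and 0.930 without the first Plekhg5+/+ SOD1-G93A library, and Tlr2 and Tlr13 of 0.936 and 0.876. The 9 pairs with Tlr5 had values from -0.665 to -0.141, and the other 36 pairs from 0.217 to 0.961. Without that library they ran from -0.574 to 0.307 and from -0.291 to 0.930, so this split by sign rests on 1 mouse.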

How the data were processed

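Poly-A RNA of the spinal cord of 12 mice was sequenced by the authors from stranded libraries with single reads of 75 bases. The authors trimmed reads with Cutadapt 2.4, mapped them with STAR 2.7.2b to GRCm38.p6 plus a human SOD1 cDNA sequence, and assigned them by strand to RefSeq exons with featureCounts 1.6.4, giving fractions to reads with several matches or on overlapping genes. The deposited values are thus expected counts per gene, which the authors neither filtered nor normalized; 17.3 to 18.1% of the entries in a library were not whole. Columns without a sample numbered 0.

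Counts were rounded. In R 4.3.3 with edgeR 4.0.16, filterByExpr kept 20155 of 45906 genes, libraries were scaled by TMM, and the 4 genotypes were fitted together with the robust quasi-likelihood test; a gene that passed had a Benjamini-Hochberg adjusted p under 0.05 over all genes tested. All 10 receptors passed the filter, which needs enough counts in 3 libraries only. CPM and RPKM (per kilobase of deposited exon length) were computed from the rounded counts and the TMM-scaled library sizes, and log2 CPM with a prior count of 2. Alternatives used DESeq2 1.42.0 and limma 3.58.1. The authors tested differences with an earlier version of DESeq2, with the prior on fold changes and an adjusted p under 0.05. The fits were tested on simulated data. Mice are the replicates. The low counts of Tlr8, Tlr12, Tlr6 and Tlr1 limit their precision.

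The receptors, pathway lists and marker lists were chosen with earlier results of these data known. Named are all 10 receptors, per list the genes that passed (at most 4) or else the 2 with the smallest p, the closest profiles (3 per receptor and 5 within genotype for Tlr2), and Plekhg5 and SOD1 as checks. Myd88, Cd14, Ly96, Irak4, Traf6, Rela, Tnf and the fifth chemokine were named for their roles after their values were seen, and the motifs were chosen with the results known. Values without Plekhg5+/+ SOD1-G93A replicate 1 for the pathway lists were added after seeing the data. Plots were drawn with Python and matplotlib.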

Additional observations from a re-analysis of the deposited data

Results flagged for a closer look

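In 4 receptors, loss of Plekhg5 went with higher levels in every library without the transgene and with lower levels in every library with it, each set against the mean of its Plekhg5+/+ counterpart. The difference between both effects on the log2 CPM scale was -1.38 for Tlr1, -1.22 for Tlr2, -0.89 for Tlr13 and -0.70 for Tlr9. For Tlr2, the 3 Plekhg5-/- libraries were 0.21 to 0.33 above the Plekhg5+/+ mean, and the 3 Plekhg5-/- SOD1-G93A libraries were between -0.97 and -0.89 from the Plekhg5+/+ SOD1-G93A mean. The rule that marked these results holds no test, and how many of all genes meet it is not given. It compares libraries with a mean, and single libraries overlapped for Tlr9 in both comparisons and for Tlr13 without the transgene. The interaction in the edgeR fit, given above, did not pass in any of the 4 (adjusted p = 0.338 for Tlr2, 0.375 for Tlr1, 0.465 for Tlr13 and 0.575 for Tlr9), and the mean of the Plekhg5+/+ SOD1-G93A libraries includes the replicate 1 that stood apart. Without it, the fitted difference of Tlr9 between Plekhg5-/- SOD1-G93A and Plekhg5+/+ SOD1-G93A turned to 0.08.

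For Tlr5, the transgene effect went in opposite directions in both backgrounds: every Plekhg5+/+ SOD1-G93A library was below the Plekhg5+/+ mean, by -0.50 to -0.07, and every Plekhg5-/- SOD1-G93A library was above the Plekhg5-/- mean, by 0.01 to 0.13. The difference was -0.44 on the log2 CPM scale, and the interaction of 0.50 in the edgeR fit had an adjusted p of 0.629. The Plekhg5+/+ mean rests on 1.1, 2.20 and 2.14 CPM.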

How the results depend on the processing

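With DESeq2, with or without the prior, 1 receptor (Tlr2) passed for loss of Plekhg5 in SOD1-G93A mice and 1 (Tlr2) in the interaction, where edgeR gave 0. Over all genes, DESeq2 passed 72 in the former and 95 in the latter, and 114 and 112 with the prior, where edgeR passed 7 and 0. With only the 2 genotypes in the fit, 0 receptors passed between Plekhg5+/+ SOD1-G93A and Plekhg5+/+ mice, and 3 genes in all where the fit of 12 libraries had 498. DESeq2 with the prior had 1190 and limma voom 295. With each library left out in turn, the number past the test was 0 to 5 in that comparison, 0 to 4 for the effect averaged over both backgrounds, and 0 in the other 4. It was 0 in that comparison without Plekhg5+/+ replicate 1 or 2, where 4 and 2 of all genes passed. The averaged effect had 0 without Plekhg5+/+ replicate 1 or 2, Plekhg5-/- replicate 2 or 3, or Plekhg5-/- SOD1-G93A replicate 1 or 2, and 1 without Plekhg5+/+ replicate 3. Of all genes, 15, 10, 38, 18, 27, 17 and 101 passed in these fits, in the same order, where the full fit had 245. Receptors with p under 0.05 relative to microglial markers numbered 3 to 4. Tlr13 relative to the markers reversed to 0.34 with the homeostatic list. The cause of these changes was not tested. With limma voom, Tlr9 did not pass in Plekhg5+/+ SOD1-G93A against Plekhg5+/+ mice (1.22, adjusted p = 0.0603).

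The labels do not say whether the replicate numbers pair the mice. Same-numbered libraries of different genotypes had correlations of deviations from -0.163 to 0.318. No values for differently numbered libraries are given beside them, so this range does not settle the question. With the replicate block, Tlr7 also passed in Plekhg5+/+ SOD1-G93A against Plekhg5+/+ mice (1.08, adjusted p = 0.0191) and in the averaged effect (0.73, adjusted p = 0.0318). Over all genes, the block raised the number past the test from 498 to 631 in the former and from 245 to 417 in the latter. Of 1940 values of receptors under alternatives, 51 had another sign than the reported one.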
